A study of Mus musculus with 8 samples.

Results

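The cardiac natriuretic peptides, the peptide osteocrin, their receptors and the proteases that process them were followed in mouse hearts with and without Lrpprc. The 9 genes described are Nppa, Nppb, Nppc, Npr1, Npr2, Npr3, Corin, Furin and Ostn, of 50599 records in each library. They were selected on the knockout against wildtype contrast, whose results were already known, so their differences between the groups, and the counts of how many passed the threshold, are given as a description from which nothing is read. Adjusted p values are given only for other genes. The gene lists below were likewise chosen with earlier results of these data known, so their shares of called genes are a description too.

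Whole hearts of male C57BL/6N mice aged 12 weeks gave the total RNA, which was sequenced after depletion of cytoplasmic rRNA. The 8 libraries, each from 1 animal, fell into 4 wildtype and 4 knockout. Lrpprc encodes a mitochondrial RNA-binding protein. The knockout animals carried Lrpprc alleles flanked by loxP sites (Lrpprc loxP/loxP) together with Cre, which removed the gene in heart and skeletal muscle only. The study gives its controls, labelled wildtype here, as Lrpprc loxP/loxP, a genotype that names no Cre. Its methods for the RNA sequencing call them only control hearts. Both groups shared strain, sex, age and chow diet. The promoter driving Cre is not given in the sources used here, and the loss of Lrpprc and the presence of Cre cannot be told apart.

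Total expected counts ranged from 35218541 to 47743376 per library. Lrpprc itself was at 3607, 3946, 3424 and 3682 normalised counts in the wildtype libraries (replicates 1 to 4 in order, here and below) and 597, 504, 605 and 601 in the knockout libraries, so all libraries matched their labels. A normalised count is the expected count divided by a factor for library size and transcript length. Mitochondrial rRNA took 44.0 to 46.9% of the counts in the wildtype and 65.6 to 67.8% in the knockout, so scaling by total counts and scaling by size factors differ, as given below. The defining cardiomyocyte markers were present in every library, and the 7 together summed to 2248409 to 2460242 in the wildtype and 1319503 to 1673645 in the knockout. The RNA is from whole hearts, where fewer cells of a type and less RNA per cell cannot be told apart.

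The heart is an endocrine organ. Atrial natriuretic peptide (from Nppa) is made mainly in the atria, B-type natriuretic peptide (from Nppb) in atria and ventricles, and both are made by ventricular muscle under load, for which reason they serve as markers of heart failure. The protease corin cleaves the precursor of the first and furin that of the second, and the peptides then act on Npr1, a guanylyl cyclase that makes cyclic GMP, which lowers blood pressure and opposes cardiac growth. C-type natriuretic peptide (from Nppc) acts on the related cyclase Npr2. Npr3 takes up and clears all of these peptides, and osteocrin (from Ostn, also called musclin), a secreted peptide known from bone and muscle, binds Npr3 and so competes with them for clearance.

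The natriuretic peptides share a ring closed by a bond between 2 cysteines, and the coding bases of that ring are shown because they define the family. The stretches of Nppb and Nppc each hold 51 bases of exon 2 (GENCODE, GRCm38), from the first to the last ring cysteine, and capitals mark bases identical in the pair. The stretch of Nppb is chr4:147986464-147986514 on the plus strand and covers codons 99 to 115 of 121. That of Nppc is chr1:86669667-86669717 on the minus strand and covers codons 110 to 126, the last of its precursor.
Nppb: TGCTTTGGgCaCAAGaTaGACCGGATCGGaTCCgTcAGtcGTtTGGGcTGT
Nppc: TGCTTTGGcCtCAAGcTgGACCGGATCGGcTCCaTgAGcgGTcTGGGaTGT
Nppb and Nppc shared 40 of the 51 bases.

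Osteocrin has no such ring but holds stretches that resemble part of it, which are shown because the peptide binds a receptor of the family. They lie at chr16:27324673-27324699 (exon 3, codons 84 to 92 of 130) and chr16:27346899-27346925 (exon 4, codons 113 to 121), both on the plus strand, and capitals mark bases equal to those of both Nppb and Nppc at the matching ring position.
Ostn, exon 3: TTTGGgtctccccTtGACaGacTCtca
Ostn, exon 4: TTTGGtattcccaTgGAtCGGATtGGt
The first stretch shared 14 of 27 bases with Nppb and 13 with Nppc. The second shared 16 and 17.

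Levels were compared between genes as TPM, a share of all transcripts that takes gene length into account. In the wildtype hearts Nppa stood first at 505, 512, 488 and 476 TPM in replicates 1 to 4, followed by Nppb at 89.7, 113, 115 and 93.5. Corin came next, at 32, 29.3, 30 and 28.9, and Furin at 13.6, 11, 11.8 and 9.01. The receptors were lower, with Npr2 at 7.01, 8.41, 7.58 and 8.16, Npr1 at 3.06, 3.58, 3.39 and 3.31 and Npr3 at 3.02, 2.14, 2.47 and 2.59. Nppc and Ostn were at or near 0, with no more than 0.07 TPM in any wildtype library. Neighbours in this order did not overlap over the 4 libraries, except Nppc and Ostn, although Npr1 and Npr3 came close (3.06 against 3.02 TPM). In the knockout the order at the top was the same, with Nppa at 1408, 1809, 1142 and 1674 TPM and Nppb at 733, 404, 321 and 584. Ostn moved from the last place to the fifth, at 6.81, 6.79, 7.31 and 8.32 TPM, overlapping Furin at 5.58, 8.78, 8.34 and 8.86 and lying above Npr2. The values of Npr3 (1.37, 3.48, 2.12 and 3) and Npr1 (1.94, 1.93, 2.17 and 2.76) overlapped in the knockout.

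Nppa, the precursor of atrial natriuretic peptide (ENSMUSG00000041616.9, chromosome 4 from 148000722 to 148002079, GRCm38), was at 12579.8, 12871, 12339.5 and 12399.6 normalised counts in the wildtype and at 40732, 48629, 34335 and 42928 in the knockout. Every knockout library lay above every wildtype library, and the wildtype values spanned a far narrower range. The means were 12548 ± 239 (SD, n = 4) for wildtype hearts and 41656 ± 5907 (SD, n = 4) for knockout hearts, a log2 fold change of 1.73 (SE 0.12) or 3.32-fold. Nppb, the precursor of B-type natriuretic peptide (ENSMUSG00000029019.8, chromosome 4 from 147985788 to 147987205), was at 1968, 2511, 2566 and 2142 in the wildtype and at 18652, 9561, 8489.6 and 13179.7 in the knockout. Again no value overlapped, but the knockout libraries differed among themselves, replicate 1 being highest and replicate 3 lowest. The means were 2297 ± 289 (SD, n = 4) for wildtype hearts and 12470.4 ± 4583 (SD, n = 4) for knockout hearts, a log2 fold change of 2.44 (SE 0.23) or 5.43-fold. The reads of the antisense record Gm13054, which overlaps Nppa, were counted separately by strand and numbered 1 to 15 per library.

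**Figure D1:**
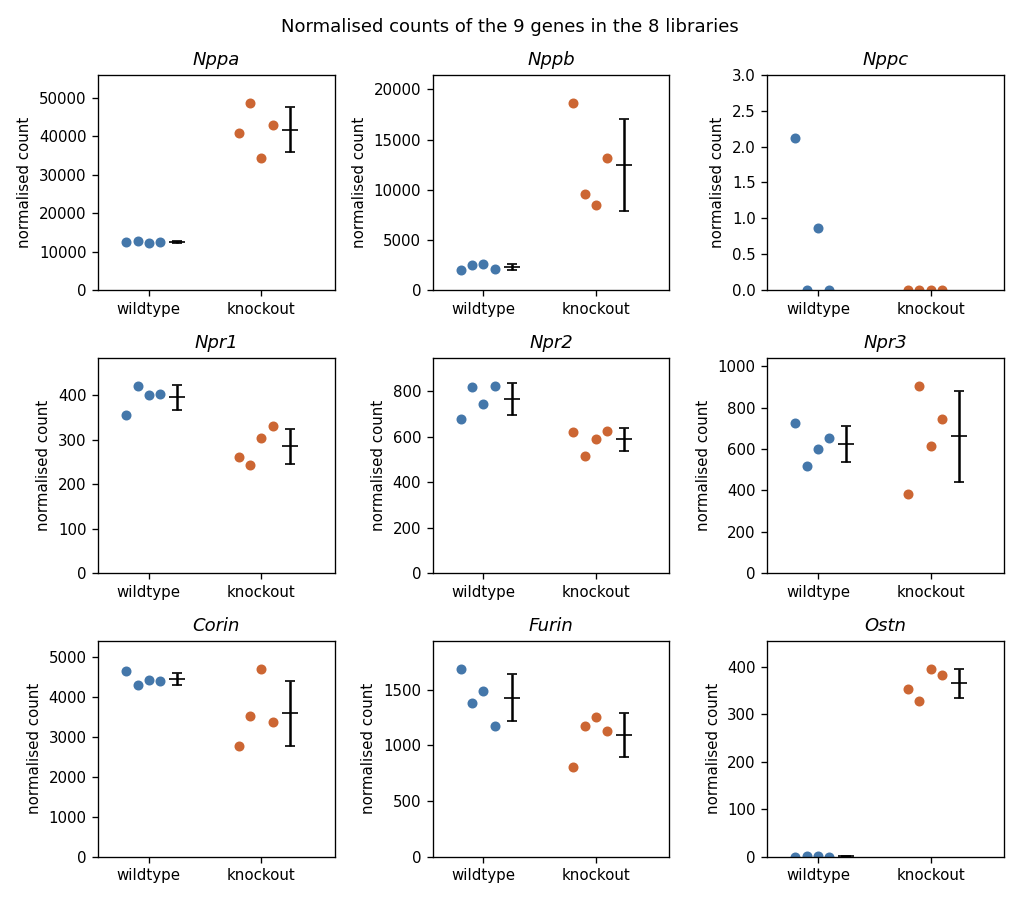
Normalised counts (vertical axis, from 0, a scale of its own in each panel) of the 9 genes in the 4 wildtype (blue) and 4 knockout (orange) libraries, shown as points in the order of replicates 1 to 4, with the mean ± SD as a bar beside them except for Nppc. Nppa, Nppb and Ostn lay higher in every knockout library, Npr1 and Npr2 lay lower in every one on this scale, and the groups of Npr3, Corin and Furin overlapped.

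Because Nppa is an atrial transcript in the healthy adult heart, the atrial markers are given beside it. Of 7 atrial markers 4 fell and 0 rose (DESeq2 with Benjamini-Hochberg adjustment), and their sum was 12313 to 14562 in the wildtype and 1967 to 7614 in the knockout. None rose at an unadjusted p under 0.05 or with edgeR either. The genes that fell were Myl7, the atrial regulatory light chain (log2 fold change -3.54, SE 0.58, adjusted p = 1.74e-08), Sln, which encodes sarcolipin (log2 fold change -2.84, SE 0.32, adjusted p = 1.51e-17), Stard10 (log2 fold change -2.57, SE 0.28, adjusted p = 6.01e-18) and Myl1 (log2 fold change -0.92, SE 0.21, adjusted p = 7.54e-05). None of the 7 was at 0 in any library. Knockout replicate 3 had both the lowest atrial sum and the lowest Nppa and Nppb of the knockout group, while knockout replicate 2 had the highest atrial sum and the highest Nppa. Between the groups, Nppa was thus higher where these other atrial transcripts were lower, and without knockout replicate 3 its log2 fold change was 1.81. Of the 5 ventricular markers 3 fell and 1 rose. Those that fell were Myl2 (log2 fold change -0.76, SE 0.13, adjusted p = 6.25e-08), Myl3 (log2 fold change -0.58, SE 0.11, adjusted p = 1.07e-06) and Irx4 (log2 fold change -0.95, SE 0.17, adjusted p = 1.42e-07). The one that rose was Myh7, the slow myosin heavy chain (log2 fold change 4.10, SE 0.41, adjusted p = 1.29e-21), and Hey2 did not pass the test (log2 fold change -0.40, SE 0.23, adjusted p = 0.177). The part of the proportion of atrial tissue in these values was not tested.

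**Figure D2:**
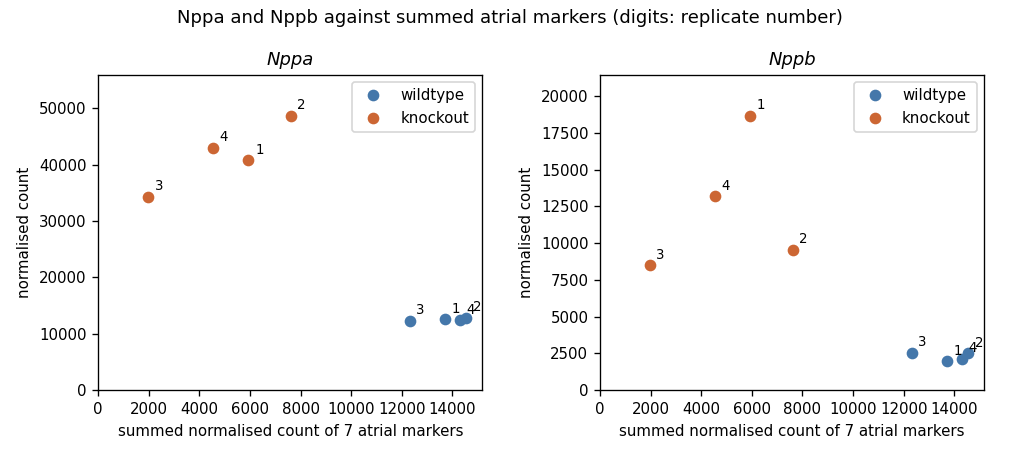
Normalised counts of Nppa (left) and Nppb (right) on the vertical axis against the summed normalised count of 7 atrial markers on the horizontal axis, with 1 point per library labelled by its replicate number. The knockout libraries (orange) sat at sums of 1967 to 7614 and the wildtype libraries (blue) at 12313 to 14562, while Nppa and Nppb were higher in every knockout library.

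Ostn, which encodes osteocrin (ENSMUSG00000052276.8, chromosome 16 from 27307489 to 27351212), was at 0, 2, 1 and 0 expected counts in the wildtype and at 317, 284, 343 and 408 in the knockout. It was thus scarcely detected in any wildtype heart and present in all knockout hearts at 354, 328, 395 and 384 normalised counts. Summed over the libraries, 1352 counts in the knockout against 3 in the wildtype gave a ratio of 534 after normalisation, with an exact 95% interval of 182 to 2593 that covers counting error only. Without wildtype replicate 2, which leaves 1 wildtype count, the ratio was 1224. Set against a floor of 3 counts in each wildtype library, the fold was 132. All Ostn counts were whole numbers. Since Ostn is known from skeletal muscle, markers of that tissue are given beside it. The 7 skeletal muscle markers together came to 21.2 to 34.1 in the wildtype and 17.2 to 49.2 in the knockout, and Myh4 and Myog were at 0 in every knockout library and in all wildtype libraries but replicate 1, where each was at about 1. Myh1 was at 0.995, 3.64, 0 and 0 in the wildtype and 1.048, 7.6, 1.08 and 3.54 in the knockout and did not pass the test (log2 fold change 1.49, SE 1.37, adjusted p = 0.44), and Myh2, which was not tested, was at 0, 0.899, 0.807 and 0.747 and 0, 2.15, 1.07 and 1.75. Of the 4 that could be tested, Tnnt3 rose (log2 fold change 2.71, SE 0.76, adjusted p = 0.00188) and Tnni2 fell (log2 fold change -1.45, SE 0.54, adjusted p = 0.0252), both from low levels. Tnnt3 was not tested by edgeR, whose filter on low counts left it out. Per length, the 7 markers summed to 1.06, 2.05, 1.19 and 2.73 TPM in knockout replicates 1 to 4, beside 6.81, 6.79, 7.31 and 8.32 TPM for Ostn alone.

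Nppc, the precursor of C-type natriuretic peptide (ENSMUSG00000026241.5, chromosome 1 from 86666291 to 86670571), was at 2, 0, 1 and 0 expected counts in the wildtype and at 0 in all 4 knockout libraries. It was not detectable above the floor of 3 counts in either group, and no fold change is given.

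Npr1, the cyclase receptor of the atrial and B-type peptides (ENSMUSG00000027931.12, chromosome 3 from 90450591 to 90465866), was at 356, 420.2, 400.1 and 402 normalised counts in the wildtype and at 262, 243, 304 and 331 in the knockout. All knockout values lay below all wildtype values, with means of 395 ± 27.3 (SD, n = 4) for wildtype hearts and 285 ± 39.9 (SD, n = 4) for knockout hearts and a log2 fold change of -0.47 (SE 0.14). Npr2, the receptor of the C-type peptide (ENSMUSG00000028469.15, chromosome 4 from 43631935 to 43651244), was at 676, 818, 741 and 821 in the wildtype and at 620.1, 516, 591 and 626 in the knockout. It too did not overlap, with means of 764 ± 69.8 (SD, n = 4) for wildtype hearts and 588 ± 50.5 (SD, n = 4) for knockout hearts and a log2 fold change of -0.38 (SE 0.12). The lower levels of both receptors depended on how libraries were scaled, since with totals taken without mitochondrial rRNA their log2 fold changes were -0.04 for Npr1 and 0.05 for Npr2. That scaling shifted all records together, and values relative to the median of all records are given below.

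Npr3, the clearance receptor (ENSMUSG00000022206.6, chromosome 15 from 11839896 to 11907287), was at 726, 519.8, 603 and 653 in the wildtype and at 383, 904, 617 and 743 in the knockout. The knockout libraries spanned the whole wildtype range, from replicate 1 at the bottom to replicate 2 at the top. The means were 626 ± 86.8 (SD, n = 4) for wildtype hearts and 662 ± 220.1 (SD, n = 4) for knockout hearts, with a log2 fold change of 0.08 (SE 0.23) and a 95% interval of -0.38 to 0.54, and without knockout replicate 2 the value was -0.10. The clearance receptor to which osteocrin binds was thus present in every library in which Ostn was counted.

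Receptors of this family are known from vessels, kidney and mesenchymal cells as well as from heart muscle, so vessel and fibroblast markers are given beside them. None of the 7 endothelial markers passed the test with DESeq2 or with edgeR, 3 had an unadjusted p under 0.05 with DESeq2, and their sums overlapped, at 15303 to 16885 in the wildtype and 10809.5 to 19164 in the knockout. Of the 6 smooth muscle and pericyte markers 3 fell and 0 rose, also at an unadjusted p under 0.05 and with edgeR, and their sum was 25811 to 26167 in the wildtype and 14899 to 20098 in the knockout. These were Myh11 (log2 fold change -1.16, SE 0.23, adjusted p = 5.09e-06), Acta2 (log2 fold change -1.16, SE 0.20, adjusted p = 6.02e-08) and Abcc9 (log2 fold change -1.26, SE 0.14, adjusted p = 5.05e-17). Abcc9 alone averaged 8870 in the wildtype and 3701 in the knockout. Rgs5 (log2 fold change -0.135, SE 0.089, adjusted p = 0.252), Pdgfrb (log2 fold change 0.12, SE 0.17, adjusted p = 0.633) and Cnn1 (log2 fold change -1.51, SE 0.77, adjusted p = 0.123) did not pass the test. Of the 6 fibroblast markers the collagen genes Col1a1 (log2 fold change 1.48, SE 0.32, adjusted p = 3.21e-05) and Col1a2 (log2 fold change 1.28, SE 0.29, adjusted p = 8.35e-05) rose, and the sum was 11956 to 12466 in the wildtype and 12643 to 24162 in the knockout. Col1a1 overlapped, with knockout replicate 3 at 769 and wildtype replicate 2 at 795. Pdgfra (log2 fold change -0.06, SE 0.19, adjusted p = 0.843), Dcn (log2 fold change 0.20, SE 0.12, adjusted p = 0.185), Lum (log2 fold change 0.62, SE 0.58, adjusted p = 0.448) and Tcf21 (log2 fold change 0.36, SE 0.33, adjusted p = 0.443) did not pass the test. None of these markers was at 0 in any library, and their part in the receptor values was not tested.

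Corin, the protease that cleaves the Nppa precursor at the surface of the muscle cell (ENSMUSG00000005220.10, chromosome 5 from 72300025 to 72504473), was at 4653, 4297, 4418 and 4392 in the wildtype and at 2774, 3515, 4694 and 3364 in the knockout. Knockout replicate 3 lay above all wildtype libraries and the other knockout libraries lay below them. The log2 fold change was -0.31 (SE 0.15) over all libraries, and -0.47 without knockout replicate 3. Furin, the protease of the secretory route that cleaves the Nppb precursor and many others (ENSMUSG00000030530.15, chromosome 7 from 80388585 to 80405436), was at 1683, 1375, 1489 and 1169 in the wildtype and at 804, 1176, 1249.6 and 1132 in the knockout. Its groups overlapped through wildtype replicate 4, which lay under 2 of the knockout libraries. The log2 fold change was -0.39 (SE 0.17), and Furin was the only one of the 9 genes with counts that were not whole, which RSEM gives where reads are divided between records. Both proteases reached values just over 0 (0.11 for Corin and 0.03 for Furin) when libraries were scaled by total counts without mitochondrial rRNA, which shifted all records together.

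Of the 9 genes 8 could be tested in the fit over all records, and 5 of these had an adjusted p under 0.05, with 3 higher (Nppa, Nppb and Ostn) and 2 lower (Npr1 and Npr2). The same 5 were those whose groups did not overlap. Over all 19959 records tested, 33.7% were called, 18.2% higher and 15.5% lower, and 33% did not overlap between the groups. As the genes were selected on this contrast, nothing is read from their count. The split of all calls moved with the scaling, from 3628 higher and 3100 lower to 1924 and 5912 with total counts and to 7950 and 1111 with total counts without mitochondrial rRNA. The median log2 fold change of all records averaging 10 normalised counts or more was shifted by -0.30 and 0.43 under these scalings. Relative to that median, Nppa was at 1.71 to 1.72, Nppb at 2.42 to 2.43, Npr1 at -0.49 and Npr2 at -0.40 to -0.39 under the 3 scalings. Corin was at -0.34 to -0.33, Furin at -0.41 and Npr3 at 0.06 to 0.08.

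**Figure D3:**
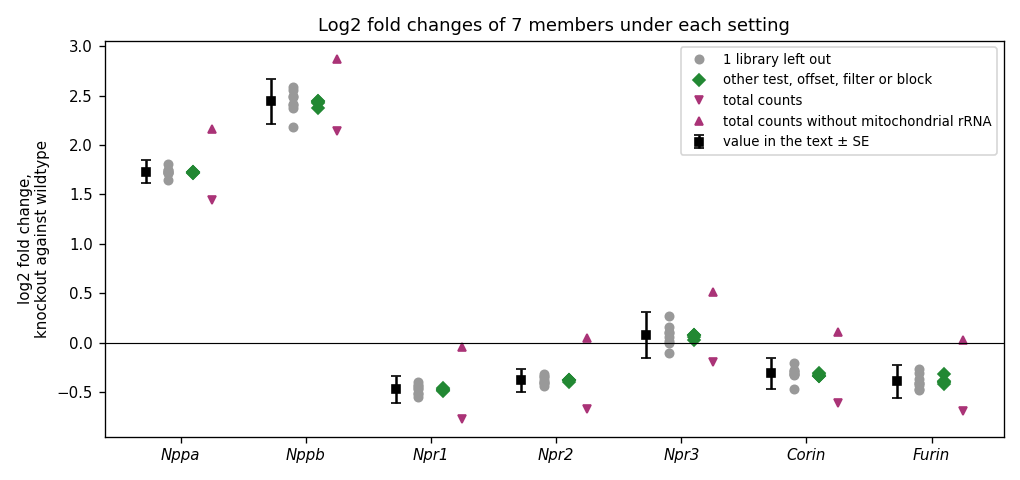
Log2 fold change of 7 of the genes, knockout against wildtype (vertical axis), with the value in the text and its standard error as a black square and each alternative as a further point. Nppa and Nppb stayed above 1 under every setting, while Npr2, Corin and Furin passed above 0 and Npr1 came to -0.04 when total counts without mitochondrial rRNA set the scale, and Npr3 lay on both sides of 0.

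Ratios of genes within a library do not depend on scaling and were taken from TPM. The ratio of Nppb to Nppa was 0.178, 0.222, 0.236 and 0.196 in the wildtype hearts (replicates 1 to 4) against 0.52, 0.223, 0.281 and 0.349 in the knockout hearts. The 2 groups overlapped through knockout replicate 2, and knockout replicate 1 stood highest, so a higher ratio was not common to all knockout hearts. The summed peptide transcripts per Npr1 transcript were 194, 175, 178 and 172 in the wildtype hearts (replicates 1 to 4) against 1104, 1146, 674 and 818 in the knockout hearts. These did not overlap, and the mean ratio was 5.2 times that of the wildtype. The ratio of Corin to Nppa was 0.0635, 0.0573, 0.0614 and 0.0608 in the wildtype hearts (replicates 1 to 4) against 0.0117, 0.0124, 0.0235 and 0.0134 in the knockout hearts, lower in every knockout library. That of Furin to Nppb was 0.151, 0.0967, 0.102 and 0.0964 in the wildtype hearts (replicates 1 to 4) against 0.00761, 0.0217, 0.026 and 0.0152 in the knockout hearts, again without overlap. Between receptors, the ratio of Npr1 to Npr2 was 0.429 ± 0.0177 (SD, n = 4) for wildtype hearts and 0.401 ± 0.0395 (SD, n = 4) for knockout hearts, and the ratio of Npr3 to Npr1 was 0.774 ± 0.162 (SD, n = 4) for wildtype hearts and 1.14 ± 0.468 (SD, n = 4) for knockout hearts. Both receptor ratios overlapped between the groups. In the knockout there were 4.97, 1.95, 3.45 and 2.77 Ostn transcripts for each Npr3 transcript in replicates 1 to 4, against 0 to 0.0187 in the wildtype.

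**Figure D4:**
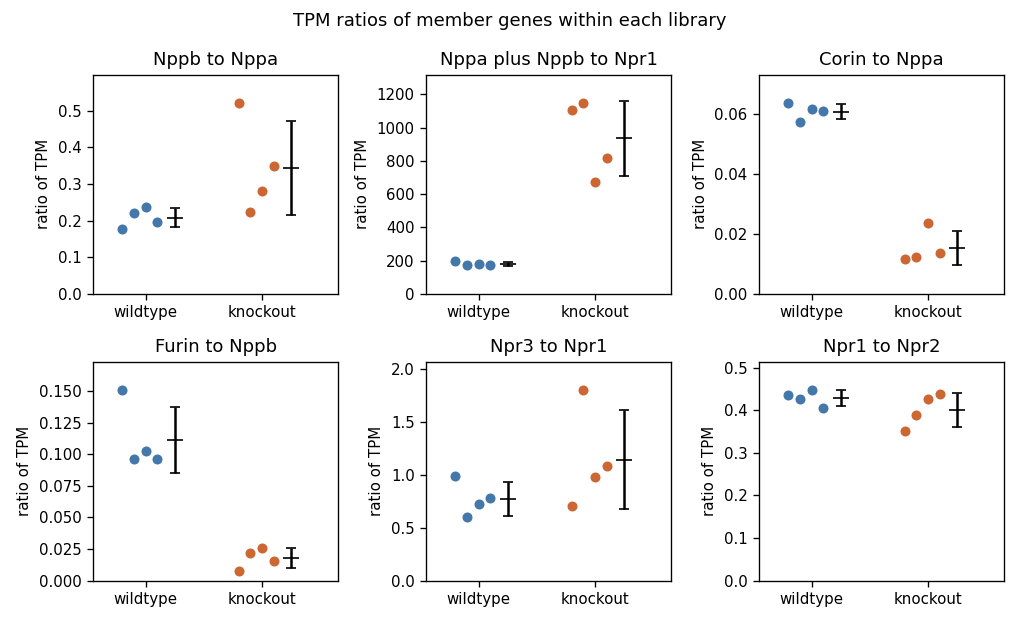
Ratios of TPM between member genes within each library (vertical axis, from 0), for the 4 wildtype (blue) and 4 knockout (orange) libraries in the order of replicates 1 to 4, with the mean ± SD beside the points. The peptide to Npr1 ratio was higher, and the Corin to Nppa and Furin to Nppb ratios lower, in every knockout library, whereas the other 3 ratios plotted overlapped.

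The genes whose pattern over the 8 libraries was most like each member were sought among 9868 protein-coding genes that averaged 100 normalised counts or more, by Pearson's r of log2(normalised count + 1). These values are a description, since the libraries share 2 groups and any gene that differs between the groups has a high r with another. For Nppa they were Pfkp (0.994), Prkar1a (0.992) and Slc1a4 (0.992), and for Nppb Tubb2a (0.993), 2410131K14Rik (0.992) and Lhfpl2 (0.992). Pfkp encodes a phosphofructokinase, Prkar1a a regulatory subunit of protein kinase A, Slc1a4 a neutral amino acid transporter and Tubb2a a tubulin. For Ostn they were Ppfibp1 (0.996), Shisa3 (0.995) and Phlda3 (0.995), but with a pseudocount of 10 Shisa3 and Phlda3 were no longer among its 3 most alike genes. Npr1 was most like Clk2 (0.983), Phf8 (0.979) and Mmp12 (0.979), and Npr2 most like Zfp101 (0.973), Ago4 (0.969) and Gtpbp1 (0.963). Npr3, which varied within the knockout group, was most like Pdgfra (0.922), Itpripl1 (0.918) and Mxd1 (0.906), of which Pdgfra encodes a platelet-derived growth factor receptor of fibroblasts. Corin was most like Ablim1 (0.980), Fech (0.979) and Rab12 (0.979), and Furin most like Sfr1 (0.960), Gse1 (0.938) and Cdkn1c (0.935).

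Downstream of the receptors, cyclic GMP is also made by the soluble guanylyl cyclase that nitric oxide activates, acts on the kinase Prkg1, and is broken down by phosphodiesterases. Of 27 genes of this pathway matched, 25 were tested, and 6 rose and 6 fell, a share of 48% against 33.7% of all records (DESeq2). Among records with at least 10 counts in 4 libraries the share was 50% against 41.7%. With total counts the split was 2 higher and 8 lower, and with total counts without mitochondrial rRNA 12 and 3. The median log2 fold change of the list was 0.001, and that of all records tested was 0.005. Rgs2, a regulator of G protein signalling that the kinase activates in vessels, was at 606, 488, 657 and 649 normalised counts in the wildtype and at 132, 174, 158 and 125 in the knockout. It fell in every knockout library (log2 fold change -2.04, SE 0.16, adjusted p = 4.76e-34). Pde3a, a phosphodiesterase inhibited by cyclic GMP, fell, from 2845, 2861, 2489.6 and 2841 in the wildtype to 1578, 1294, 1276 and 1578 in the knockout (log2 fold change -0.95, SE 0.11, adjusted p = 2.35e-15). The channel gene Cnga3 (log2 fold change -2.54, SE 0.50, adjusted p = 4.31e-06) and the phosphodiesterase gene Pde11a (log2 fold change -1.80, SE 0.63, adjusted p = 0.0165) also fell, from low counts, and the call of Pde11a was lost without any one of wildtype replicates 1, 2 and 4 or knockout replicate 4, and its log2 fold change moved to -2.50 without knockout replicate 3. Of the soluble cyclase subunits Gucy1a1 fell (log2 fold change -0.74, SE 0.15, adjusted p = 6.34e-06), whereas Gucy1a2 (log2 fold change -0.30, SE 0.17, adjusted p = 0.179) and Gucy1b1 (log2 fold change -0.15, SE 0.21, adjusted p = 0.632) did not pass the test. With total counts without mitochondrial rRNA the calls of Gucy1a1 and Pde11a were lost.

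Among the genes of the pathway that rose were Abcc4, which encodes an exporter of cyclic nucleotides, and Vasp, an actin regulator that is a classical substrate of the kinase. Abcc4 was at 302, 278, 360 and 308 in the wildtype and 765, 670.3, 706 and 864 in the knockout (log2 fold change 1.27, SE 0.13, adjusted p = 1.24e-19). Vasp was at 456, 512, 481 and 438 and 928, 985, 1069.7 and 875 (log2 fold change 1.03, SE 0.11, adjusted p = 2.8e-19). Neither overlapped between the groups. Pde1c, a calmodulin-dependent phosphodiesterase named after its values were seen, was at 1483, 1609.6, 1438 and 1531 and 2074, 2320.3, 1813 and 2128 and rose (log2 fold change 0.46, SE 0.10, adjusted p = 6.19e-05), a call that was lost with total counts. The kinase gene Prkg1 itself did not pass the test (log2 fold change 0.19, SE 0.12, adjusted p = 0.234), nor did the phosphodiesterase genes Pde2a (log2 fold change -0.14, SE 0.15, adjusted p = 0.524), Pde5a (log2 fold change -0.20, SE 0.28, adjusted p = 0.638) and Pde9a (log2 fold change 0.00, SE 0.28, adjusted p = 0.998).

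**Figure D5:**
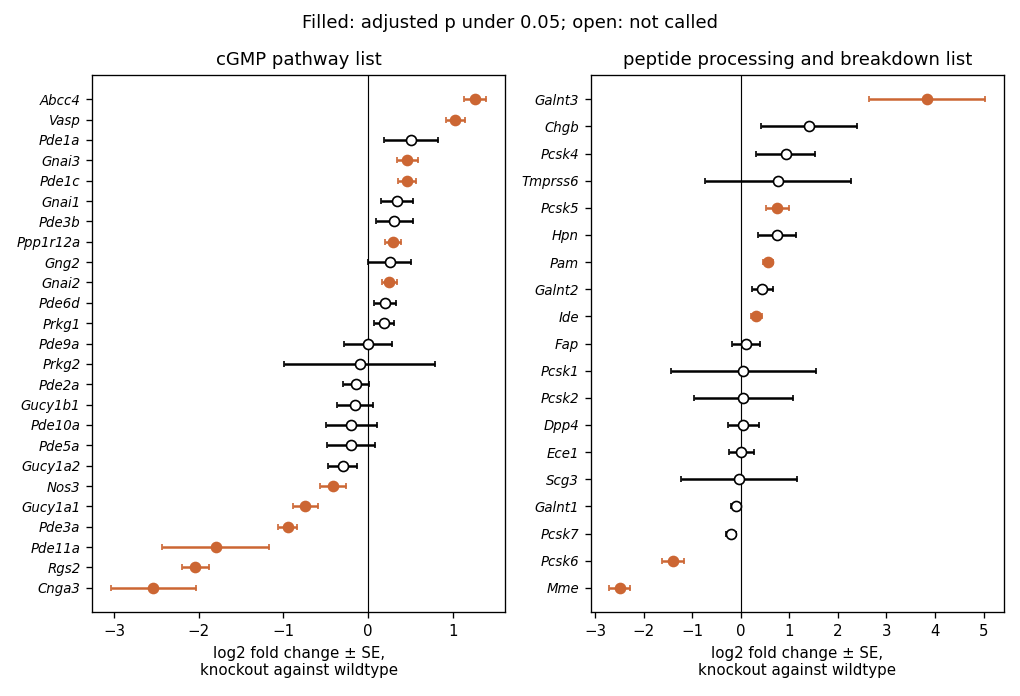
Log2 fold change with its standard error (horizontal axis), knockout against wildtype, of the tested genes of the cyclic GMP pathway (left, 25 genes) and of peptide processing and breakdown (right, 19 genes), with filled orange points for an adjusted p under 0.05 and open points otherwise. On the left Rgs2 and Cnga3 lay far below 0, Abcc4 and Vasp above 0 and Prkg1 near 0, and on the right Mme lay far below 0.

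Of 24 genes of peptide processing and breakdown 19 were tested, and 4 rose and 2 fell, a share of 31.6% against 33.7% of all records. Among records with at least 10 counts in 4 libraries the share was 38.5% against 41.7%. With total counts the split was 1 higher and 4 lower, and with total counts without mitochondrial rRNA 7 and 2. The median log2 fold change was 0.11, or 0.05 with genes at the floor set to their bound. Mme, which encodes neprilysin, the protease that degrades natriuretic peptides outside the cell, was at 241, 274, 230.1 and 255 normalised counts in the wildtype and at 66.4, 33.1, 40.2 and 38.6 in the knockout. Its log2 fold change of -2.49 (SE 0.22) was the largest fall of the list (adjusted p = 1.57e-28). Pcsk6, a protease that activates corin, fell, from 1246, 1272, 1204 and 1398 in the wildtype to 624, 401, 279.8 and 641 in the knockout (log2 fold change -1.40, SE 0.23, adjusted p = 2.83e-08). Pcsk5, a related proprotein convertase, rose (log2 fold change 0.75, SE 0.24, adjusted p = 0.00809), but its call was lost without knockout replicate 2 or knockout replicate 4, the same libraries in which macrophage and fibroblast markers were highest. The macrophage markers summed to 2656 to 3460.2 in the wildtype and 3054 to 7139 in the knockout, with 5 of 6 higher by DESeq2, 3 of 6 by edgeR and none at 0, and their part in the value of Pcsk5 was not tested. Pam, which amidates peptides and is abundant in atrial granules, rose (log2 fold change 0.56, SE 0.10, adjusted p = 1.02e-06), and so did Ide, insulin-degrading enzyme (log2 fold change 0.32, SE 0.12, adjusted p = 0.0187), whose call was lost without any one of wildtype replicates 2, 3 and 4. The fourth gene that rose was Galnt3, a glycosyltransferase with at most 1.13 normalised counts in the wildtype and 0.727 to 21.6 in the knockout, named after its values were seen, and its call was lost without knockout replicate 4. With total counts the calls of Pcsk5, Pam and Ide were lost, and that of Ide was also lost with the replicate block.

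The promoters of Nppa and Nppb are classical targets of cardiac transcription factors. RefSeq promoters of 300 bases (GRCm38.p6) matched 8 of the 9 genes, all but Ostn. They were searched on both strands for the GATA motif (AGATAA or TGATAA), the TEAD motif (CATTCC), the NKX2-5 motif (CAAGTG), the AP-1 motif (TGANTCA with C or G at N), the ATF4 motif (TGATGNAA), and the MEF2 and SRF motifs. The Nppa stretch of 130 bases before its start, chr4:148000592-148000721 on the plus strand, is shown with the GATA match at -122 and the NKX2-5 match at -66 in capitals.
Nppa: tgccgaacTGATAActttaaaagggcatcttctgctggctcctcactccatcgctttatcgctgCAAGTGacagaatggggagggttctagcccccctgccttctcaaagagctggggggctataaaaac
For Nppb a stretch of 27 bases at chr4:147985795-147985821 on the plus strand is shown, from a TEAD match on the other strand at -105 to GATA matches at -95 and -84, in capitals. It lies before the RefSeq start but inside the longer GENCODE transcript.
Nppb: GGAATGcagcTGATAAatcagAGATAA
A GATA match was found in 18.6% of 32851 promoters, a TEAD match in 14.7%, an NKX2-5 match in 13.6%, an AP-1 match in 5.2%, an ATF4 match in 3.97%, a MEF2 match in 3.19% and an SRF match in 1.63%. The matches shown do not overlap one another. Neither the Nppa nor the Nppb promoter held a match to the AP-1, ATF4, MEF2 or SRF motif. Of the other members, 1 of the 2 Furin promoters held 2 NKX2-5 matches, and the promoters of Nppc, Npr1, Npr2, Npr3 and Corin held none of the motifs searched. A match is a description of the letters and does not show binding.

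Of 28 genes examined as possible regulators of Nppa or Nppb 27 were tested, and 2 rose and 11 fell. The share of 48.1% compares with 33.7% of all records, and the median log2 fold change was -0.25. Among records with at least 10 counts in 4 libraries the share was 48.1% against 41.7%. The split was 2 higher and 16 lower with total counts, and 7 and 3 with total counts without mitochondrial rRNA, scalings under which the split of all records moved likewise. Both genes that rose encode stress-induced factors of the ATF family, Atf4 (log2 fold change 2.61, SE 0.14, adjusted p = 9.2e-75) and Atf3 (log2 fold change 1.503, SE 0.29, adjusted p = 2.1e-06). Atf4 was at 991, 973, 1109 and 917 normalised counts in the wildtype and 6556, 5183, 7338 and 5256 in the knockout. The largest falls were those of Jarid2, a repressor of cardiac genes (log2 fold change -1.22, SE 0.15, adjusted p = 4.16e-14), of Tbx5, a T-box factor that activates Nppa (log2 fold change -1.21, SE 0.21, adjusted p = 8.64e-08), and of Myocd, which encodes the SRF coactivator myocardin (log2 fold change -1.18, SE 0.12, adjusted p = 1.86e-19). Tbx5 was at 512, 578, 418 and 482 in the wildtype and at 145, 204, 296 and 213 in the knockout, so it was lower in the same hearts in which Nppa was higher. Among the factors whose motifs were found in the promoters, named after their values were seen, Gata6 fell (log2 fold change -0.69, SE 0.19, adjusted p = 0.00117), and Gata4 (log2 fold change 0.08, SE 0.12, adjusted p = 0.636), Nkx2-5 (log2 fold change -0.23, SE 0.12, adjusted p = 0.131) and Tead1 (log2 fold change -0.24, SE 0.18, adjusted p = 0.328) did not pass the test. Gata6 did not pass either once totals without mitochondrial rRNA set the scale.

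Natriuretic peptides oppose the hormones that raise blood pressure, which act through angiotensin, endothelin, aldosterone and adrenergic receptors. The list examined held genes of these systems together with other vasoactive genes, among them the adrenomedullin and apelin genes and their receptors, some of which lower blood pressure. Of its 28 genes 22 were tested, and 5 rose and 9 fell, a share of 63.6% against 33.7% of all records, with a median log2 fold change of -0.47. Among records with at least 10 counts in 4 libraries the share was 66.7% against 41.7%. The list was chosen with earlier results known, and nothing is read from its share. With total counts the split was 4 higher and 11 lower, and with total counts without mitochondrial rRNA 8 and 6. The largest falls were in adrenergic receptors. Adra1a was at 712, 633, 537 and 676 normalised counts in the wildtype and at 96.5, 116, 119.7 and 134 in the knockout (log2 fold change -2.45, SE 0.15, adjusted p = 4.48e-54). Adra1b (log2 fold change -2.33, SE 0.23, adjusted p = 6.3e-22) and Adrb1, the main beta receptor of heart muscle (log2 fold change -1.98, SE 0.22, adjusted p = 9.3e-18), fell likewise, as did Apln, which encodes the peptide apelin (log2 fold change -1.60, SE 0.44, adjusted p = 0.00158). Among the genes that rose, named after their values were seen, were Ace, which makes angiotensin II (log2 fold change 1.03, SE 0.21, adjusted p = 5.08e-06), the endothelin gene Edn1 (log2 fold change 1.60, SE 0.35, adjusted p = 3.63e-05), the endothelin receptor gene Ednrb (log2 fold change 1.53, SE 0.13, adjusted p = 8.44e-30) and Adm, which encodes adrenomedullin (log2 fold change 0.76, SE 0.25, adjusted p = 0.0101). The call of Adm was lost without wildtype replicate 4 or with total counts. In the knockout Edn1 was at 80.4, 262, 124.5 and 252 and Ace at 1350, 2400, 1506 and 2427. Both were highest in knockout replicates 2 and 4, in which macrophage and fibroblast markers were highest too. The part of these markers in the values of Edn1 and Ace was not tested.

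Nppa and Nppb lie 13.5 kb apart on the same strand of chromosome 4, and genes around the members were examined to see how the members compared with their surroundings. Of 49 protein-coding genes within 100 kb of a member 43 were tested, and 9 rose and 4 fell, a share of 30.2% against 33.7% of all records. Among records with at least 10 counts in 4 libraries the share was 36.8% against 41.7%. With total counts the split was 3 higher and 15 lower, and with total counts without mitochondrial rRNA 25 and 1. Around Nppa and Nppb, Clcn6, a chloride transporter gene that ends 2.2 kb from Nppa, was at 175, 164, 191 and 217 in the wildtype and 253, 217, 301 and 247 in the knockout (log2 fold change 0.44, SE 0.16, adjusted p = 0.0199). Agtrap, whose product binds the angiotensin receptor, rose by a similarly small amount (log2 fold change 0.44, SE 0.15, adjusted p = 0.0106). The calls of Clcn6 and Agtrap were lost without wildtype replicate 1, and that of Clcn6 also without wildtype replicate 2 or knockout replicate 3. Both were lost with total counts, and that of Clcn6 with the replicate block.

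Near Npr1, the calcium-binding protein genes S100a13 (log2 fold change 1.46, SE 0.14, adjusted p = 1.65e-22) and S100a1 (log2 fold change 0.60, SE 0.12, adjusted p = 1.01e-05) rose, while Gatad2b fell (log2 fold change -0.28, SE 0.11, adjusted p = 0.0322). Near Npr2, Creb3 (log2 fold change 0.74, SE 0.18, adjusted p = 0.000245) and the cytoskeletal gene Tln1 (log2 fold change 0.47, SE 0.12, adjusted p = 0.000883) rose, and Hint2 (log2 fold change -0.60, SE 0.11, adjusted p = 4.34e-07) and Gba2 (log2 fold change -0.53, SE 0.21, adjusted p = 0.0358) fell. The calls of Gatad2b and Gba2 were each lost in 6 of the 8 fits that left out a library. Near Furin, Vps33b rose (log2 fold change 0.80, SE 0.24, adjusted p = 0.00416) and Man2a2, a glycan-trimming enzyme, fell (log2 fold change -0.95, SE 0.20, adjusted p = 1.08e-05). Near Ostn, Ccdc50, at 37.7 kb, was at 902, 878, 744 and 854 in the wildtype and 1070.3, 1217, 1582 and 1212 in the knockout (log2 fold change 0.59, SE 0.14, adjusted p = 0.000215). Uts2b, the nearest gene at 2.1 kb, was at 4.25, 0, 6.93 and 8.02 and 21.3, 24.3, 0 and 15 normalised counts and did not pass the test (log2 fold change 1.65, SE 0.999, adjusted p = 0.206), named after its values were seen. Of these neighbours, Tln1, Vps33b and Ccdc50 lost their calls with total counts, Gatad2b, Gba2 and Hint2 with total counts without mitochondrial rRNA, Gba2 with edgeR and Gatad2b with the replicate block.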

How the data were processed

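Titles in the labels placed the samples in 2 groups, 4 wildtype and 4 knockout libraries. The authors made the expected counts and the TPM values from reverse-stranded reads on mm10 (RSEM 1.2.31, Bowtie2), against GENCODE transcripts to which they had added mitochondrial sequences carrying 50 further adenines. RSEM divides reads shared between records, so deposited expected counts can be fractional. The deposited length and effective length are other values, in bases. A deposited table of the authors' own comparison was not used, and 8 columns of a table of normalised counts, whose names match no sample label, were not used either.

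Expected counts were rounded and fitted with DESeq2 1.42.0 (R 4.3.3) on genotype alone, with size factors by the median of ratios and an offset for effective length, the tximport route of the study. P values were adjusted by Benjamini-Hochberg over all records at a threshold of 0.05, and records left without an adjusted p by the tool were not counted. Symbols and GRCm38 coordinates came from GENCODE and matched 50339 of 50563 Ensembl identifiers. Depth ranged from 35218541 to 47743376 counts per library. The interval and floor of Ostn cover counting error only, that of Npr3 rests on the standard error of the fit, and a group with at most 3 counts in every library was taken as at the floor. Replicates differed by more than sampling noise in every pair, with a chi-square per degree of freedom of 4.65 to 52.9. On simulated data DESeq2 and edgeR recovered most changed genes, and DESeq2 called unchanged genes more often than its threshold allows and more often than edgeR. The simulation changed far fewer genes than were called here and did not carry the difference in mitochondrial rRNA. It therefore measures neither rate in the fits reported here. Alternatives were a replicate block, scaling by total counts (also with mitochondrial rRNA removed) or by nuclear records alone, edgeR 4.0.16 with TMM, a filter of 10 counts in 4 libraries, omission of the length offset, omission of single libraries, ratios of expected counts, and a pseudocount of 10.

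The members and the gene lists were chosen with earlier results of these data known. Named were all 9 members, the 5 largest changes past the threshold in each list among genes averaging 10 normalised counts or more, the direct enzymes and effectors of the pathway, all called genes within 100 kb, and the 3 genes most alike each member. A few items that the rule names are not reported here.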

Additional observations from a re-analysis of the deposited data

Results flagged for a closer look

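In the ratio of Corin to Nppa, knockout replicate 3 stood apart at 0.0235, with the other knockout libraries at 0.0117 to 0.0134. In the ratio of Furin to Nppb, wildtype replicate 1 stood apart at 0.151, with the other wildtype libraries at 0.0964 to 0.1025. In each case the gap to the nearest library took more than Dixon's critical share of the range of its group of 4. Of 52 such groups examined (members, ratios and marker sums) 2 held a library that far out, and chance gives about 1 in 20. Both ratios stayed without overlap between wildtype and knockout.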

How the results depend on the processing

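Of the counts of called records and list members, 103 of 105 alternatives stayed within 1.5 times the count in the report. With total counts without mitochondrial rRNA 44.3% of 20459 records were called, beside 3 of the 8 genes tested and 26 of 44 genes within 100 kb of a member, 25 higher and 1 lower. Under that scaling the log2 fold changes of Npr2 (0.049), Corin (0.108) and Furin (0.034) turned positive, and under total counts that of Npr3 turned to -0.20. Both scalings use totals that differ in the share of mitochondrial rRNA and shift all records together. Leaving out single libraries moved the log2 fold change of Npr3 from -0.10 to 0.27, the lowest without knockout replicate 2. Nppa kept a range of 1.44 to 2.16 and Nppb of 2.15 to 2.87 over all alternatives. Of the 24 most alike genes 22 were kept with a pseudocount of 10. Set against 3 counts per wildtype library, Ostn was 107-fold higher with total counts.

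The replicate numbers did not pair the libraries. The deviations of same-numbered libraries correlated at -0.07 to 0.07, and 2 of 8 libraries correlated best with their own number. A fit with the replicate block called 5525 of 18483 records, or 29.9%, and 5 of the 8 genes tested. Nppc had at most 2 counts in any library, too few to compare at this depth.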
